A study of Homo sapiens with 36 samples.

Results

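The genes described here are 27 genes of cholesterol synthesis, sterol transport and control by the sterol regulatory element-binding proteins (SREBPs). They were chosen by symbol from knowledge of the pathway, with earlier results of these data known. All 27 were found among the 60676 genes of the count table. All of them passed the filter on low counts that left 15744 genes for testing. The cells were LNCaP, an androgen-sensitive line from a human prostate cancer, and 36 RNA libraries were made from them. Cultures received the vehicle DMSO, enzalutamide at 3 µM, olaparib at 3 µM, or the pair together at these doses (the combination), and were taken after 8, 24 or 72 h, with 3 cultures in each of the 12 groups. Enzalutamide is an antagonist of the androgen receptor, and olaparib is an inhibitor of PARP enzymes that act in DNA repair. Every group was of the same single cell line in medium with serum, so the spread given is that between cultures of 1 line.

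Cells make cholesterol from acetyl-CoA through mevalonate, isoprenyl diphosphates, squalene and lanosterol, and the genes of most steps carry binding sites for SREBPs. The SREBP precursors sit in the endoplasmic reticulum bound to the escort protein SCAP, and INSIG proteins hold this complex there when sterols are plentiful. In prostate cells androgens are known to raise lipid synthesis genes, and cholesterol is also the starting material of steroid hormones.

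The bases just upstream of 5 members are shown because they carry the letters that SREBPs and their partner factors are known to bind, or because they belong to pairs of genes that moved in opposite directions below. They come from RefSeq promoter windows of GRCh38.p14, trimmed to the bases before the first exon base in the deposited table, and run 5′ to 3′ on the strand of the gene. Capitals mark the sterol element letters TCACCCCAC, the NF-Y box CCAAT and the Sp1 box GGGCGG, each on either strand, so that ATTGG and CCGCCC are those boxes on the other strand. The stretches are chr22:41832855-41833078 (plus strand) for SREBF2, chr7:155297628-155297775 (plus) for INSIG1, chr2:118088221-118088451 (plus) for INSIG2, chr11:65111622-65111844 (plus) for TM7SF2 and chr1:225428926-225429071 (minus) for LBR.
SREBF2: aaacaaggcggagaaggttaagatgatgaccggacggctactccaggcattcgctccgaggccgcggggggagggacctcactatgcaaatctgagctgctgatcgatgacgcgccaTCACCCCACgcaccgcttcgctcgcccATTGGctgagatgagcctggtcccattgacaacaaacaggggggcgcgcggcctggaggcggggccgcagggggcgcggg
INSIG1: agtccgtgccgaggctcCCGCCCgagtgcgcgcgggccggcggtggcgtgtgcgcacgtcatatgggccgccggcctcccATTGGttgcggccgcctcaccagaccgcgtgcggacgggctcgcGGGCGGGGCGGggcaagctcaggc
INSIG2: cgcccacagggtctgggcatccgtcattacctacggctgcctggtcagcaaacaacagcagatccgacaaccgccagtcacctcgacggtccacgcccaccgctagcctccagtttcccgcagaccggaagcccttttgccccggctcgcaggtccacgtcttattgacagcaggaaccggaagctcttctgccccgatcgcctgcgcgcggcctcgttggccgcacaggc
TM7SF2: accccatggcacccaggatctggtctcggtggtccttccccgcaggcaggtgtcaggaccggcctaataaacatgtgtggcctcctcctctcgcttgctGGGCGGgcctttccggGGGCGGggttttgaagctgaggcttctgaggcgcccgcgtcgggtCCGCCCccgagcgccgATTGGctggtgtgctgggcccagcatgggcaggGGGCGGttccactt
LBR: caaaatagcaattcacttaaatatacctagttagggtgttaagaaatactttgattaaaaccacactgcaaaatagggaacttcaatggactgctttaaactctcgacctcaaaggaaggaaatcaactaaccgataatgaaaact
Of the 27 members 24 had a window of 250 bases before the RefSeq start. The letters TCACCCCAC stood in 1 of these 24, SREBF2 (4.17%), against 0.45% of the 27305 genes with a window, and allowing any base in the middle, as TCACNCCAC, gave the same 1 member against 1.09% of genes. CCAAT stood in 17 of the 24 (70.8%, against 37.0% of genes) and GGGCGG in 22 (91.7%, against 46.2%), while the LBR window held none of the motifs. A gene counted if any of its windows held the letters, and some genes, members among them, had more than 1 (35116 windows in all). The 27305 genes were not limited to those expressed here, so whether the members differ from other expressed genes was not tested. Some GGGCGG boxes, on either strand, lay in the bases trimmed off before printing. They began 7 bases before the RefSeq start in INSIG2, 10 and 23 bases before it in SREBF2, and 80 and 93 in INSIG1. These are matches of letters, not measured binding.

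Total counts per library, in megacounts (M), ran from 4.15 M to 15.4 M around a median of 9.63 M. Replicates correlated at 0.978 or more. One library, DMSO 72 h replicate 1, stood apart from the rest on the third principal component. It held 4.66 M counts and 1.54% mitochondrial counts, against 5.56% and 3.97% in the other DMSO cultures at 72 h. Among the 27 members it was the highest of the 3 DMSO 72 h cultures for 9 and the lowest for 15. CYP51A1 stood at 2.46 times and PMVK at 1.70 times the mean of the other cultures. Changes against DMSO at 72 h that gained or lost a call without this library are therefore also given without it. KLK3, the androgen-driven gene of prostate-specific antigen, fell from 745 ± 67.1 to 7.25 ± 1.33 CPM (counts of a gene per megacount of the TMM-scaled library) with enzalutamide at 72 h. CDKN1A, a p53 target, rose from 381 ± 41.8 to 1170 ± 26.4 CPM with olaparib (mean ± SD, n = 3). The 6 luminal prostate markers summed to 2570 to 4100 CPM over the groups. The 4 blood markers summed to at most 0.0591 CPM, the 3 basal ones to at most 1.88, the 3 endothelial ones to at most 8.64, the 3 neuroendocrine ones to 11.4 to 24.3 and the 4 stromal ones to 16.3 to 29.9. KRT5, TP63 and CDH5 were at 0 in every group. Within these low levels, the basal marker KRT14 went from 1.59 ± 0.244 CPM in DMSO to 0 in all 3 enzalutamide cultures at 72 h, and the endothelial marker VWF fell (log2 fold change -1.35). Their part in the results was not tested.

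Levels of the members differed widely. Per kilobase of exon, the mean over all 36 libraries was highest for TM7SF2 (94.9 CPM per kb), SREBF1 (93.9), SREBF2 (54.2) and DHCR7 (53.5), and lowest for CYP51A1 (2.16) and STARD4 (2.74). The CYP51A1 level is uncertain, because 80.6% of its exon bases are also annotated to an overlapping gene on the same strand. Reads shared by both are not assigned to one gene with certainty. The overlapping gene held 0 counts, so reads on the shared bases may be missing from the CYP51A1 count. The pseudogene copies CYP51A1P1 and CYP51A1P2 held counts equal to 34.5% and 22.9% of that uncertain count. The combination at 72 h was the lowest of the 12 groups for 17 of the 27 genes. The share of all genes with their lowest mean there was not computed. That group also had the largest share of all genes called against DMSO, 42.5%. INSIG1 had the widest range of the members, 3.07-fold between its highest and lowest group means, followed by INSIG2 with 2.77-fold and NPC1 with 2.53-fold. In RNA from whole cultures, a lower level in every cell and fewer cells that express the gene cannot be told apart.

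What each treatment did to the pathway was asked by comparison with DMSO at the same hour. Of the 20 genes that encode synthesis enzymes, 12 fell with enzalutamide at 24 h, 13 with the combination and 1, DHCR7, with olaparib. Of all genes tested, 10.6%, 12% and 0.47% were called lower in these contrasts. Tested directly, the combination was below enzalutamide for 2 of the 20 at 24 h and for 9 at 72 h, against 0.845% and 8.04% of all genes. With enzalutamide 2 of the 27 members were called at 8 h (1 higher and 1 lower), 20 at 24 h (3 higher and 17 lower) and 18 at 72 h (2 and 16). Over all genes tested the called shares were 3.02%, 18.8% and 27.2%, so at 24 h and 72 h the members' shares of 74.1% and 66.7% lay well above the background. Because the members were chosen with earlier results of these data known, this describes them and is not an independent test. With olaparib 0 members were called at 8 h, 3 at 24 h (all lower) and 9 at 72 h (1 higher and 8 lower), against 1.32%, 1.12% and 17.9% of all genes. With the combination 3 were called at 8 h (all lower), 20 at 24 h (2 higher and 18 lower) and 23 at 72 h (3 and 20), against 5.98%, 21.6% and 42.5%. A call here means an edgeR quasi-likelihood test whose p, adjusted by Benjamini-Hochberg across the 15744 genes, was below 0.05. With olaparib at 8 h 5 members had an unadjusted p below 0.05, DESeq2 called 0, and 1 member was called there in a fit without DMSO 72 h replicate 1.

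**Figure D1:**
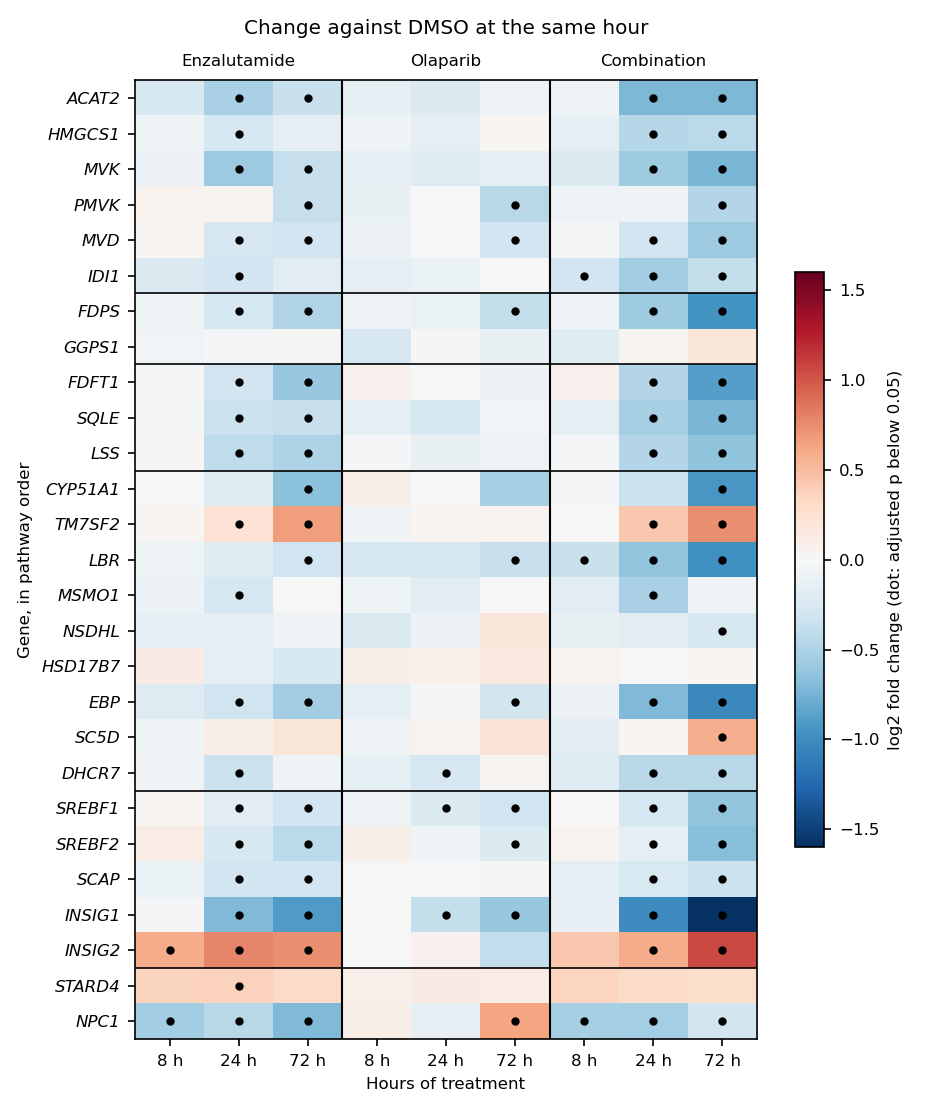
Log2 fold change of each of the 27 genes (y axis, in pathway order, with lines between steps) against DMSO at the same hour for each drug and hour (x axis). Dots mark an adjusted p below 0.05. Blue fills most of the enzalutamide and combination columns at 24 h and 72 h, with INSIG2, TM7SF2 and STARD4 in red. SC5D is also red in the combination at 72 h, and STARD4 has a dot only with enzalutamide at 24 h.

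The median log2 fold change of the 27 members was -0.04, -0.27 and -0.31 with enzalutamide at 8, 24 and 72 h, -0.06, -0.10 and -0.08 with olaparib, and -0.09, -0.44 and -0.47 with the combination. The median over all genes tested was between -0.02 and 0.01 in each of these contrasts. In each library, the mean over the members of the log2 level relative to DMSO at 8 h lay between 0.037 and 0.051 in the DMSO cultures at 72 h. It lay between -0.205 and -0.17 with enzalutamide, between -0.074 and -0.043 with olaparib and between -0.357 and -0.334 with the combination. On this mean the 4 groups did not overlap. On the median over the members they did, because DMSO 72 h replicate 1 stood at -0.088, against 0.013 and 0.025 in the other DMSO cultures and -0.046 to -0.02 with olaparib. The medians were -0.314 to -0.225 with enzalutamide and -0.491 to -0.47 with the combination, still below both other groups. Over the 9 contrasts against DMSO, 25 of the 27 genes were called at least once, against 57.3% of all genes. Of these, 20 were only ever lower (27.2% of all genes), 4 only ever higher (TM7SF2, SC5D, INSIG2 and STARD4, against 25.2% of all genes), and NPC1 was both. GGPS1 and HSD17B7 were not called in any of the 9 in the fit of all libraries.

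**Figure D2:**
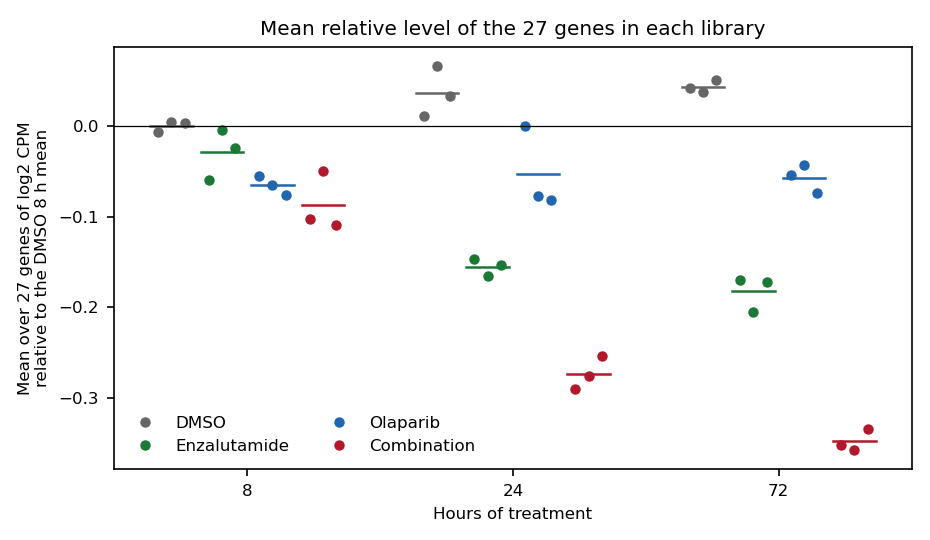
Mean over the 27 genes of log2 CPM relative to the DMSO 8 h mean (y axis) in each library, by hours of treatment (x axis). Points are single libraries and lines the mean of each group. At 72 h the combination lies lowest, near -0.35, followed by enzalutamide, olaparib and DMSO.

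Among the control genes, the sharpest contrast was within the INSIG pair. INSIG1 (chromosome 7, 155297776 to 155310235 on GRCh38) is itself a target of SREBPs. In the DMSO cultures at 72 h it stood at 158, 168 and 181 CPM, with enzalutamide at 92.8, 89.9 and 88.2, with olaparib at 107, 115 and 113, and with the combination at 57.2, 60 and 52.8. The groups did not overlap, and the combination was lowest. Its log2 fold changes against DMSO at 72 h were -0.91 ± 0.06 with enzalutamide (adjusted p 9.4e-15), -0.60 ± 0.06 with olaparib (adjusted p 1.9e-09) and -1.58 ± 0.07 with the combination (adjusted p 2.2e-21). At 24 h they were -0.70, -0.39 and -1.01, all called. At 8 h none was called, and the olaparib cultures all stood at 136 CPM, where DMSO stood at 137, 132 and 140.

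INSIG2 (chromosome 2, 118088452 to 118110997), the second retention protein, went the other way. At 72 h it stood at 14.8, 13 and 16.6 CPM in DMSO, 25.3, 24.3 and 24 with enzalutamide and 32, 30 and 29.6 with the combination, and these groups did not overlap. It rose with enzalutamide by 0.59 ± 0.14 at 8 h (adjusted p 0.0087), 0.79 ± 0.13 at 24 h (adjusted p 2.0e-05) and 0.75 ± 0.14 at 72 h (adjusted p 4.6e-05). It rose with the combination by 0.60 ± 0.14 at 24 h and 1.06 ± 0.14 at 72 h. With olaparib at 72 h it stood at 10.2, 13 and 9.94 CPM, a change of -0.39 ± 0.15 that was not called (adjusted p 0.069). The rise at 8 h lost its call without DMSO 8 h replicate 2 (0.53, adjusted p 0.099) or without enzalutamide 8 h replicate 3 (0.42, adjusted p 0.19).

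**Figure D3:**
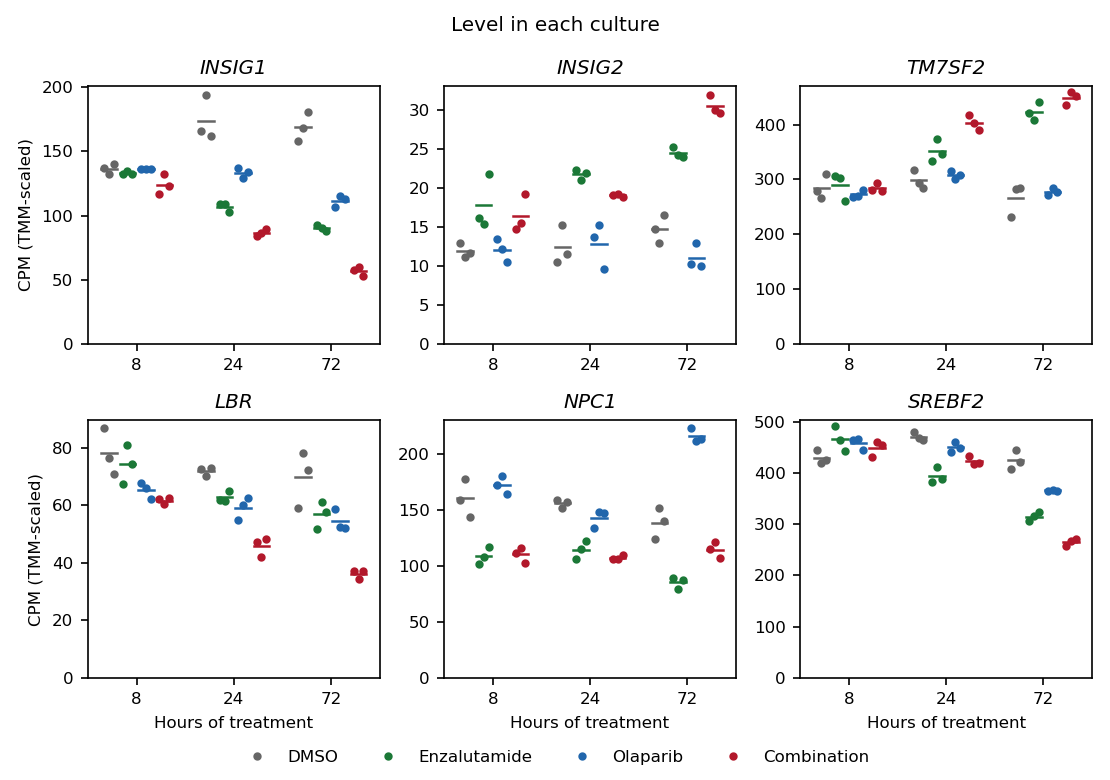
TMM-scaled CPM (y axis, from 0) in each culture of 6 genes by hours of treatment (x axis). Points are cultures and lines group means. INSIG1 and LBR go down and INSIG2 and TM7SF2 up in the combination from 8 h to 72 h, and NPC1 is highest with olaparib at 72 h.

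The genes of the SREBP factors and of SCAP also fell, by less than INSIG1 at 72 h in each call. SREBF2, whose product mainly drives cholesterol genes, stood at 408, 445 and 422 CPM in DMSO at 72 h, 306, 315 and 323 with enzalutamide, 365, 367 and 365 with olaparib and 258, 268 and 271 with the combination. These groups did not overlap, and the changes of -0.44 ± 0.05, -0.22 ± 0.05 and -0.68 ± 0.05 were all called. SREBF1, whose product mainly drives fatty acid genes, fell at 72 h by 0.30 ± 0.05 with enzalutamide, 0.32 ± 0.05 with olaparib and 0.64 ± 0.05 with the combination. SCAP, the escort gene, fell by 0.31 ± 0.06 with enzalutamide and 0.34 ± 0.06 with the combination, while its olaparib cultures at 151, 149 and 155 CPM overlapped the DMSO cultures at 141, 155 and 151. At 24 h SREBF1 fell in all 3 treatments, by 0.18, 0.21 and 0.28, SREBF2 fell with enzalutamide (-0.26) and the combination (-0.15), and SCAP fell with the same treatments (-0.31 and -0.25). The SREBF1 call with olaparib at 24 h was lost whichever of the 6 libraries compared was left out (adjusted p 0.051 to 0.3). That with enzalutamide at 24 h was lost without DMSO 24 h replicate 1 or enzalutamide 24 h replicate 1 (adjusted p 0.11 and 0.063). The SREBF2 call with the combination at 24 h was lost without any of 3 libraries (DMSO replicate 1, combination replicates 2 and 3, adjusted p 0.051 to 0.068).

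The early mevalonate genes fell together in the combination at 72 h. ACAT2 makes acetoacetyl-CoA, HMGCS1 joins it to another acetyl-CoA, MVK and PMVK phosphorylate mevalonate, MVD makes isopentenyl diphosphate and IDI1 isomerises it. All 6 were called lower in the combination at 72 h, by -0.73 (MVK) to -0.38 (IDI1), and 5 of 6 at 24 h, where PMVK was not called (-0.08 ± 0.12). With enzalutamide 5 of 6 fell at 24 h and 4 of 6 at 72 h. MVK stood at 38.5, 35.1 and 36.7 CPM in DMSO at 72 h, 29.5, 27.5 and 27.9 with enzalutamide and 21, 23.6 and 20.9 with the combination, and the groups did not overlap (adjusted p 8.9e-04 and 1.6e-08). ACAT2 in the same groups stood at 42.4, 31 and 34.5 CPM, at 29.4, 26.1 and 26.7, and at 20.9, 21 and 22.3. Its exons share 17.2% of their bases with the abundant gene TCP1 on the other strand, and reads were counted without strand, so its level is uncertain. HMGCS1 shares 37.7% of its exon bases with a gene on the other strand that held 0 counts, so its level is uncertain as well. IDI1 was the single early gene called at 8 h, in the combination (-0.31 ± 0.09, adjusted p 0.039), and 4 of the 6 single omissions of a library ended that call (adjusted p 0.10 to 0.21). The MVD calls at 24 h are at the edge of the test: with enzalutamide (-0.27, adjusted p 0.05) the call was lost without any 1 of the 6 libraries (adjusted p 0.083 to 0.13), and with the combination (-0.31) without any 1 of 5 (adjusted p 0.053 to 0.16). At 24 h with enzalutamide, IDI1 also lost its call without any 1 of 3 libraries (adjusted p 0.051 to 0.093).

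Several 72 h results of these genes rest on the DMSO library that stood apart. PMVK stood at 75.9, 40.2 and 49 CPM and MVD at 70.2, 45.1 and 51.6 in the DMSO 72 h cultures, replicate 1 first. Without that library, the enzalutamide changes moved from -0.37 to -0.12 for PMVK, from -0.31 to -0.14 for MVD and from -0.35 to -0.24 for ACAT2, and none was called (adjusted p 0.42, 0.29 and 0.062). The olaparib changes moved from -0.44 to -0.18 for PMVK and from -0.30 to -0.13 for MVD (adjusted p 0.22 and 0.37), and the combination change of PMVK from -0.47 to -0.21 (adjusted p 0.079). Without DMSO 72 h replicate 2 instead, the enzalutamide changes were -0.59 for PMVK and -0.47 for MVD, and the olaparib changes -0.67 and -0.47. The PMVK and MVD calls with enzalutamide were also lost without enzalutamide replicate 2 (adjusted p 0.055 and 0.070) or 3 (0.078 and 0.067), and the MVD call with olaparib without olaparib replicate 2 or 3 (0.079 for each). With the DMSO library left out, 17 members were called with enzalutamide at 72 h, 6 with olaparib and 23 with the combination. Calls gained there with enzalutamide were HMGCS1 (-0.22, adjusted p 0.018), IDI1 (-0.27, adjusted p 0.024) and HSD17B7 (-0.31, adjusted p 0.041). With the combination MSMO1 was gained (-0.24, adjusted p 0.028).

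FDPS makes farnesyl diphosphate, the branch point to sterols and to protein prenylation, and GGPS1 extends it to geranylgeranyl diphosphate. FDPS stood at 106, 84.1 and 90.5 CPM in DMSO at 72 h, 66.3, 65.6 and 66.1 with enzalutamide, 68.2, 69.4 and 77 with olaparib and 42.1, 48.6 and 50.7 with the combination. All treated cultures lay below the DMSO cultures, and the changes were -0.48 ± 0.07, -0.38 ± 0.07 and -0.96 ± 0.08 (adjusted p 2.1e-06, 2.5e-04 and 5.5e-13). GGPS1 was not called against DMSO at any hour, with 24.6 ± 1.48 CPM in the combination at 72 h and 21.4 ± 2.07 in DMSO (SD, n = 3, adjusted p 0.13). Some 37.3% of its exon bases belong also to an overlapping gene on the same strand, so its level is uncertain. FDPS shares 18.6% of its exon bases with a gene on the other strand, so its level is uncertain as well.

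Against DMSO, the squalene genes fell with enzalutamide and not detectably with olaparib in the fit of all libraries. FDFT1 makes squalene, SQLE oxidises it and LSS closes the rings to lanosterol. All 3 fell at 24 h and 72 h with enzalutamide and with the combination, and none was called with olaparib against DMSO at any hour. In the fit without DMSO 72 h replicate 1, SQLE was called with olaparib at 24 h (-0.25, adjusted p 0.037). FDFT1 (chromosome 8, 11795573 to 11839304) stood at 198, 182 and 206 CPM in DMSO at 72 h, 128, 132 and 126 with enzalutamide, 183, 185 and 181 with olaparib and 106, 102 and 110 with the combination. Its olaparib cultures overlapped DMSO, and the others lay below (-0.60 ± 0.06 with enzalutamide, adjusted p 2.1e-10, and -0.88 ± 0.06 with the combination, adjusted p 7.6e-15). At 72 h with the combination, SQLE fell by 0.74 ± 0.08 and LSS by 0.65 ± 0.07. Each of the enzalutamide and combination calls against DMSO held without any single library. Against enzalutamide at 72 h, the combination was lower for FDFT1 (-0.28 ± 0.06, adjusted p 0.001) and SQLE (-0.37 ± 0.08, adjusted p 7.6e-04). LSS was not called there (-0.15 ± 0.07, adjusted p 0.17).

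**Figure D4:**
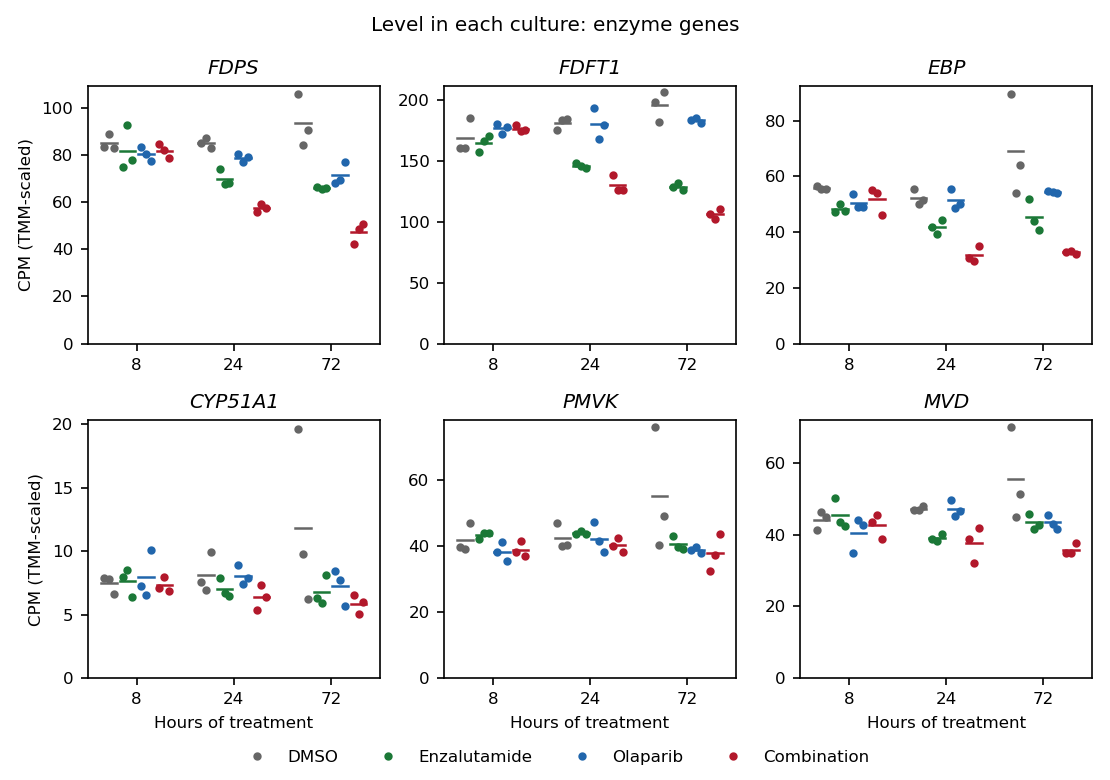
TMM-scaled CPM (y axis, from 0) of 6 enzyme genes in each culture by hours of treatment (x axis). Points are cultures and lines group means. FDPS, FDFT1 and EBP are lowest in the combination at 24 h and 72 h, and 1 DMSO culture at 72 h stands high for EBP, CYP51A1, PMVK and MVD.

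From lanosterol on, the genes did not move as one. TM7SF2 (chromosome 11, 65111845 to 65116408) and LBR (chromosome 1, 225401502 to 225428925) encode enzymes for the same reduction of a sterol double bond, and LBR is also a protein of the inner nuclear membrane. TM7SF2 stood at 231, 283 and 285 CPM in DMSO at 72 h, 421, 409 and 441 with enzalutamide, 271, 285 and 277 with olaparib and 435, 459 and 452 with the combination. It rose by 0.66 ± 0.07 with enzalutamide (adjusted p 2.9e-10) and 0.75 ± 0.07 with the combination (adjusted p 8.8e-12), with no overlap, while its olaparib cultures overlapped DMSO. At 24 h it rose by 0.24 ± 0.06 and 0.44 ± 0.07. The former call was lost without enzalutamide 24 h replicate 2 (0.19, adjusted p 0.063).

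LBR fell instead. In the order of DMSO, enzalutamide, olaparib and combination at 72 h, its cultures stood at 58.9, 78.2 and 72.3 CPM, at 51.9, 61 and 57.7, at 58.6, 52.6 and 52.2, and at 37.3, 34.2 and 37.3. The enzalutamide cultures overlapped DMSO (-0.32 ± 0.08, adjusted p 0.0027), the olaparib cultures lay just under it (-0.37 ± 0.08, adjusted p 0.0013) and the combination well below (-0.98 ± 0.09, adjusted p 1.8e-11). It was already lower in the combination at 8 h (-0.35 ± 0.08, adjusted p 0.0040) and 24 h (-0.64 ± 0.08). The 8 h call was lost without DMSO 8 h replicate 1 (-0.27, adjusted p 0.085).

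Of the other 7 genes of this stretch, EBP, the sterol isomerase gene, had the largest change in the combination at 72 h. It stood at 89.4, 54.1 and 63.9 CPM in DMSO at 72 h, 51.8, 44 and 40.9 with enzalutamide, 54.9, 54.4 and 54.1 with olaparib and 32.9, 33.4 and 32.2 with the combination. The first of the DMSO values is the library that stood apart. The change with the combination was -1.03 ± 0.11 (adjusted p 9.0e-10) and that with enzalutamide -0.56 ± 0.10, or -0.36 without that library (adjusted p 0.0011). The olaparib change (-0.30 ± 0.10, adjusted p 0.037) was lost without that library (-0.10, adjusted p 0.48) or any of the 3 olaparib libraries, and moved to -0.48 without DMSO 72 h replicate 2. At 24 h EBP fell by 0.32 ± 0.10 with enzalutamide, a call lost without DMSO replicate 1 or enzalutamide replicate 2 (adjusted p 0.11 and 0.098), and by 0.71 ± 0.11 with the combination. Some 36.4% of the EBP exon bases are also annotated to an overlapping gene on the same strand, so its level is uncertain.

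CYP51A1, the lanosterol demethylase gene, stood at 19.6, 9.77 and 6.19 CPM in DMSO at 72 h and at 6.34, 5.87 and 8.12 with enzalutamide. These groups overlapped, and the call (-0.65 ± 0.22, adjusted p 0.026) was lost without DMSO 72 h replicate 1 (-0.26, adjusted p 0.37) or without enzalutamide replicate 1 or 2 (adjusted p 0.085 and 0.087). In the combination the change was -0.93 ± 0.24, or -0.54 without the DMSO library (adjusted p 0.033). The methylsterol oxidase gene MSMO1 fell at 24 h with enzalutamide (-0.27 ± 0.10, adjusted p 0.044) and the combination (-0.52 ± 0.10), and at 72 h was called in neither of them. The enzalutamide call at 24 h was lost without any 1 of 4 libraries (adjusted p 0.08 to 0.18). Without DMSO 72 h replicate 1, MSMO1 was called lower in the combination at 72 h (-0.24, adjusted p 0.028). DHCR7, a reductase gene of the last steps, stood at 194, 258 and 217 CPM in DMSO at 72 h, 216, 201 and 223 with enzalutamide, 230, 247 and 217 with olaparib and 161, 170 and 164 with the combination. Both single drugs overlapped DMSO and the combination lay below (-0.44 ± 0.07, adjusted p 2.1e-06). At 24 h DHCR7 fell in all 3 treatments (-0.34, -0.27 and -0.44), and the olaparib call was lost without any 1 of 5 libraries (adjusted p 0.084 to 0.22).

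SC5D, a sterol desaturase gene, rose in the combination at 72 h alone among the contrasts against DMSO. It stood at 58.9, 82.6 and 81.1 CPM in DMSO, 86.6, 89.2 and 83.3 with enzalutamide, 88.3, 84.5 and 89.2 with olaparib and 119, 108 and 113 with the combination (0.58 ± 0.09, adjusted p 8.1e-07). The dehydrogenase gene NSDHL was called once, in the combination at 72 h (-0.26 ± 0.09, adjusted p 0.017), and the call was lost without combination replicate 2 or 3 or DMSO replicate 3 (adjusted p 0.063 to 0.11). For the reductase gene HSD17B7 the nearest to a call was -0.26 ± 0.11 with enzalutamide at 72 h (adjusted p 0.067). Without DMSO 72 h replicate 1 that change was called (-0.31, adjusted p 0.041).

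The transport gene NPC1 was the one member that the drugs moved in opposite directions. Its product exports cholesterol from lysosomes. At 8 h it stood at 159, 178 and 144 CPM in DMSO, 102, 108 and 117 with enzalutamide, 172, 180 and 164 with olaparib and 112, 116 and 103 with the combination. It had fallen by 0.56 ± 0.07 with enzalutamide (adjusted p 9.2e-07) and 0.54 ± 0.07 with the combination at an hour when LBR and IDI1 were the 2 synthesis genes called, both in the combination. At 72 h it stood at 124, 152 and 140 CPM in DMSO, 89.5, 79.3 and 87.3 with enzalutamide, 223, 212 and 213 with olaparib and 115, 121 and 107 with the combination, and no 2 of these groups overlapped. The changes were -0.71 ± 0.07 (adjusted p 1.3e-09), 0.63 ± 0.07 (adjusted p 3.0e-08) and -0.29 ± 0.07 (adjusted p 0.0017). At 24 h NPC1 fell with enzalutamide (-0.44) and the combination (-0.54), and olaparib gave -0.13 ± 0.07 (adjusted p 0.62). STARD4, which encodes a carrier of cholesterol between membranes, rose with enzalutamide at 24 h (0.37 ± 0.11, adjusted p 0.014), a call lost without DMSO 24 h replicate 1 or enzalutamide 24 h replicate 1 (adjusted p 0.17 and 0.063). With enzalutamide or the combination, its other 5 changes against DMSO were 0.28 to 0.36 and were not called.

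At 72 h, fitting only the 6 libraries of a contrast against DMSO, with their own spread, left 13 members called with enzalutamide, 18 with the combination and 3 with olaparib, the last being SREBF1, INSIG1 and NPC1. At 24 h the same fit called 21, 20 and 4. Each lane of the sequencer held 1 library of each group, and within lanes the sign was the same in all 3 for 16 of the 18 calls with enzalutamide (not CYP51A1 and LBR), 7 of the 9 with olaparib (not MVD and EBP) and 23 of the 23 with the combination. The calls came from these same libraries, so agreement in sign is largely built in and is not separate support.

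Whether the combination differed from each single drug was tested directly. Against enzalutamide, 0 members were called at 8 h (3 at an unadjusted p below 0.05, and 0 by DESeq2), 3 at 24 h (FDPS, LBR and INSIG1, all lower) and 14 at 72 h (12 lower and 2 higher), where 0.654%, 1.92% and 14.5% of all genes were called. At 72 h the larger differences were -0.67 ± 0.07 for INSIG1 (adjusted p 1.3e-09), -0.65 ± 0.09 for LBR, -0.48 ± 0.08 for FDPS and -0.47 ± 0.11 for EBP, and SC5D and NPC1 were higher by 0.39 ± 0.08 and 0.42 ± 0.08. The FDPS call at 24 h was lost without any 1 of 5 libraries (adjusted p 0.061 to 0.18), and at 72 h ACAT2, HMGCS1 and EBP lost theirs without enzalutamide replicate 1 (ACAT2, EBP) or combination replicate 2 (ACAT2, HMGCS1), with adjusted p 0.052 to 0.097. Against olaparib, 1 member was called at 8 h (NPC1, -0.64 ± 0.07), 17 at 24 h (15 lower and 2 higher) and 22 at 72 h (18 and 4), against 2.19%, 13.6% and 34.2% of all genes. INSIG2 differed most at 72 h, by 1.45 ± 0.14 (adjusted p 5.3e-11), followed by INSIG1 at -0.97 ± 0.07, NPC1 at -0.92 ± 0.07 and FDFT1 at -0.79 ± 0.06. The 24 h calls of MVK, MVD, SQLE, MSMO1 and INSIG2 against olaparib, and the 72 h calls of MVD and IDI1, were each lost without at least 1 library (adjusted p 0.051 to 0.21). GGPS1 was called at 72 h as well (0.30 ± 0.10, adjusted p 0.015), and lost its call without combination replicate 1 or olaparib replicate 1 or 2 (adjusted p 0.059 to 0.060).

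Enzalutamide against DMSO and the combination against olaparib share no library, so they measure the enzalutamide effect in separate cultures, without and with olaparib. At 24 h 16 members were called in both, 14 lower and 2 higher, with none in opposite directions, which is 80.0% of the 20 called without olaparib and 94.1% of the 17 called with it. At 72 h 16 were again called in both, 14 lower and 2 higher, of 18 and 22. All 27 log2 fold changes had the same sign in both at 72 h, and across the 27 genes, which are not independent, Pearson's r was 0.90. For olaparib at 72 h 7 members were called in both, of 9 without and 14 with enzalutamide, 19 of 27 had the same sign, and r was 0.60. Those 7 were FDPS, LBR, EBP, SREBF1, SREBF2 and INSIG1, lower in both, and NPC1, higher in both. The same overlaps and shared signs were not computed over all genes, so whether the members differ from other genes here was not tested.

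**Figure D5:**
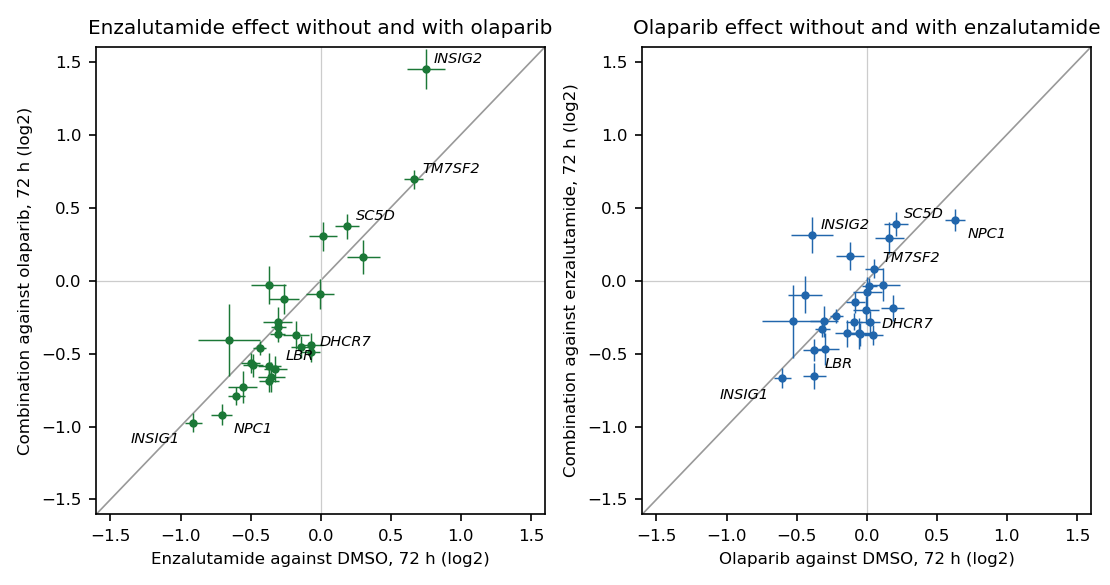
Log2 fold change at 72 h of each of the 27 genes for a drug against DMSO (x axis) and for the same drug on top of the other (y axis), with standard errors as bars and the line of equality in grey. Left, enzalutamide, where all 27 points share their sign. Right, olaparib, where 19 of 27 share their sign and INSIG2 is among the 8 that do not.

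Whether the combination differed from adding the enzalutamide and olaparib log2 fold changes was tested, and was called for 0 members at 8 h and 0 at 24 h, where 0% of all genes were called. At an unadjusted p below 0.05 there were 3 members at 8 h and 2 at 24 h, and DESeq2 called 0 at both hours. At 72 h 2 members were called against 2.26% of all genes, DHCR7 at -0.42 ± 0.10 (adjusted p 0.011) and INSIG2 at 0.70 ± 0.19 (adjusted p 0.045). With INSIG2 the combination stood above the sum of the single effects, and with DHCR7 below it. The INSIG2 call was lost without any 1 of 10 of the 12 libraries (adjusted p 0.056 to 0.15), and that of DHCR7 without olaparib 72 h replicate 2 (-0.35, adjusted p 0.065).

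Comparing the single drugs, enzalutamide against olaparib called 2 members at 8 h (INSIG2 and NPC1), 11 at 24 h and 14 at 72 h, against 4.17%, 13.7% and 31% of all genes. At 72 h NPC1 was lower with enzalutamide than with olaparib by 1.34 ± 0.07 on the log2 scale (-1.34, adjusted p 1.2e-17), INSIG2 was higher by 1.14 ± 0.14 and TM7SF2 by 0.61 ± 0.07, and FDFT1 differed by -0.51 ± 0.06. HSD17B7, not called against DMSO in the fit of all libraries, differed by -0.42 ± 0.10 (adjusted p 0.0015). At 8 h the INSIG2 call was lost without enzalutamide replicate 3 or olaparib replicate 3 (adjusted p 0.14 and 0.12). At 24 h ACAT2, TM7SF2 and EBP each lost their call without any 1 of 5 libraries (adjusted p 0.051 to 0.25). At 72 h EBP lost its call without any 1 of 5 libraries, MVK of 3, and ACAT2 and NSDHL of 2 (adjusted p 0.065 to 0.3). DESeq2 did not call ACAT2 (adjusted p 0.056) and EBP (0.057) at 24 h, nor MVK (0.067) and EBP (0.066) at 72 h.

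Without drug, the pathway changed little over the course. Between 8 h and 72 h in DMSO 2 members were called, both higher, against 2.81% of all genes: INSIG1 by 0.32 ± 0.06 (adjusted p 0.0031) and FDFT1 by 0.22 ± 0.06 (adjusted p 0.035). The FDFT1 call was lost without any 1 of 4 libraries (adjusted p 0.11 to 0.22). The share of all genes rests on single libraries: 442 genes were called, 60 without DMSO 72 h replicate 1, and 20 to 2071 over the single omissions. How far each effect moved between 8 h and 72 h was tested too, and was called for 8 members with enzalutamide (1 higher and 7 lower), 5 with olaparib (2 and 3) and 18 with the combination (4 and 14), against 10.2%, 9.71% and 22.9% of all genes. These contrasts use the same DMSO cultures as the single-hour ones. For INSIG1 the effect moved by -0.88 ± 0.09 with enzalutamide, -0.61 ± 0.09 with olaparib and -1.45 ± 0.09 with the combination.

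Related genes outside the 27 were taken from lists of general knowledge, with earlier results of these data known. Of 11 fatty acid genes known as SREBP targets, 8 fell with enzalutamide at 24 h and 9 fell and 1 rose at 72 h, 3 fell with olaparib at 24 h and 8 fell and 1 rose at 72 h, and 10 and then all 11 fell with the combination. The shares of all genes called in these contrasts, in the same order, were 18.8%, 27.2%, 1.12%, 17.9%, 21.6% and 42.5%. Their median log2 fold change in the combination at 72 h was -0.72. The fatty acid synthase gene FASN stood at 4330, 3420 and 3400 CPM in DMSO at 72 h and 1490, 1730 and 1610 with the combination, with no overlap (-1.20 ± 0.09, adjusted p 1.3e-13). Of 13 tested genes of other sterol transport, esterification and efflux, 4 rose and 2 fell with enzalutamide at 24 h (46.2%, against 18.8% of all genes), and 4 rose and 5 fell with the combination at 72 h (69.2%, against 42.5%). Among those, the cholesterol exporter gene ABCA1 stood at 1.96, 1.97 and 1.71 CPM in DMSO at 72 h and 7.14, 8.11 and 8.35 with enzalutamide (2.05 ± 0.21, adjusted p 4.8e-10). Of 10 other genes of SREBP processing and sterol sensing, 2 rose and 2 fell with enzalutamide at 24 h (40%) and 3 rose and 3 fell with the combination at 72 h (60%). Of 11 genes of other isoprenoid branches, 1 rose and 1 fell (18.2%), and 2 rose and 3 fell (45.5%), in those same contrasts, which is near the shares of all genes. The proliferation marker MKI67 fell from 236 ± 17.7 to 155 ± 8.43 CPM with enzalutamide at 24 h and from 202 ± 11.5 to 143 ± 11.6 with the combination at 72 h (SD, n = 3). With enzalutamide at 72 h it stood at 220 ± 29.9 CPM and was not called. Its part in the results of any of these contrasts was not tested.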

How the data were processed

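RNA from LNCaP cultures was sequenced, and the authors deposited 1 table of raw counts per gene for the 36 libraries. Per the file headers, reads were counted with featureCounts 2.0.0 on Ensembl 99, without strand, for fragments of 20 to 5000 bases. Per the submitters' processing notes, STAR, featureCounts, DESeq2 and hg38 were used, and the aligner's version is not given in the sources used here.

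Symbols matched 60357 of the 60676 genes. In R 4.3.3, edgeR 4.0.16 filtered low counts, scaled by TMM and fitted 1 quasi-likelihood model over the 12 groups with 24 residual degrees of freedom, and Benjamini-Hochberg adjustment ran over all 15744 genes tested. The biological coefficient of variation was 6.44%. A value after ± is a standard error for log2 fold changes and an SD for CPM, with n = 3. The pipeline was tested on simulated data. Levels are limited by counting error and the spread between 3 cultures, and nothing beyond the label of triplicate cultures says how separate these were.

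The members and lists were chosen with earlier results of these data known. The 27 members were always eligible to be named, and of other genes only check genes and those of the lists with the largest changes. Alternatives were RLE scaling, DESeq2 1.42.0, no filter, fitting only the libraries compared, a lane or replicate block and leaving out each library. Same-numbered cultures did not deviate together (median r 0.00879, lowest -0.152), so they were not treated as pairs.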

Additional observations from a re-analysis of the deposited data

Results flagged for a closer look

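These differences between hours, or between the combination and the sum of its drugs, passed the edgeR quasi-likelihood test with Benjamini-Hochberg adjustment over all genes. Values are differences of log2 fold changes.

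The enzalutamide effect differed between 72 h and 8 h for 8 members. It moved by -0.88 for INSIG1, -0.57 for FDFT1, -0.55 for SREBF2, -0.51 for LSS, -0.42 for FDPS, -0.35 for SREBF1 and -0.33 for SQLE, and by 0.63 for TM7SF2. The olaparib effect differed for 5, by -0.61 for INSIG1, -0.31 for SREBF2 and -0.26 for SREBF1, and by 0.53 for NPC1 and 0.41 for NSDHL. Leaving out 1 library ended the call of SQLE with enzalutamide for 4 of 12 libraries (adjusted p 0.055 to 0.1), of NSDHL with olaparib for 6 (0.054 to 0.09) and of SREBF1 with olaparib for 2 (0.058 and 0.12). DESeq2 gave an adjusted p of 0.052 for NSDHL, and the NSDHL call was also lost with no filter and with only the libraries compared. That last fit also ended the calls of FDPS (adjusted p 0.075), SQLE (0.13) and SREBF1 (0.055) with enzalutamide. With olaparib it ended those of SREBF1 (0.14) and SREBF2 (0.06). With no filter SQLE with enzalutamide (0.087) and SREBF1 with olaparib (0.11) lost theirs too.

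The combination effect differed for 18 members. Among the enzymes up to lanosterol it moved by -0.95 for FDFT1, -0.91 for FDPS, -0.65 for ACAT2, -0.63 for LSS, -0.58 for SQLE, -0.55 for MVD, -0.49 for MVK and -0.29 for HMGCS1, and by 0.38 for GGPS1. Beyond lanosterol it moved by -0.93 for EBP, -0.90 for CYP51A1 and -0.63 for LBR, and by 0.74 for TM7SF2 and 0.74 for SC5D. Of the control genes, INSIG1 moved by -1.45, SREBF2 by -0.74, SREBF1 by -0.62 and INSIG2 by 0.62. Leaving out 1 library ended the call for 9 of 12 libraries for HMGCS1 (adjusted p 0.054 to 0.13), 10 for GGPS1 (0.051 to 0.13), 10 for CYP51A1 (0.052 to 0.2) and 4 for INSIG2 (0.053 to 0.088). Without DMSO 72 h replicate 1 the CYP51A1 value was -0.51 (adjusted p 0.2). With only the libraries compared, HMGCS1 (adjusted p 0.14), MVD (0.053), GGPS1 (0.084) and CYP51A1 (0.15) lost their calls. HMGCS1 and GGPS1 also lost theirs with DESeq2 (0.057 and 0.089) and with no filter (0.12 and 0.13), and CYP51A1 with RLE scaling.

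At 72 h the combination departed from the sum of both drugs by -0.42 for DHCR7 and 0.70 for INSIG2. The DHCR7 and INSIG2 calls were lost with only the libraries compared (adjusted p 0.17 and 0.073).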

How the results depend on the processing

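Of 217 calls of a member in a contrast, none changed sign under any alternative. Calls lost were 8 with DESeq2, 14 with no filter, 30 when only the libraries compared were fitted, 3 with RLE scaling, 0 with a lane block and 2 with the replicate block. The replicate block ended INSIG2's departure at 72 h (0.69, adjusted p 0.055), leaving 1 member there, and HMGCS1's change of the combination effect (-0.29, adjusted p 0.051), but ended no other call and added 1. The replicate numbers are not pairs by the check above.

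Counts of called members that moved by over 1.5 times follow. With only the libraries compared there were 3 with olaparib at 72 h (9 in the fit of all groups), 5 for the combination against enzalutamide at 24 h (3), 0 for the departure at 72 h (2), 0 for DMSO at 72 h against 8 h (2), and 5 and 2 for the change of the enzalutamide and olaparib effects (8 and 5). With no filter the last was 3. In the fit without DMSO 72 h replicate 1, which was added after seeing the data, there was 1 with olaparib at 8 h (0), 5 with olaparib at 24 h (3), 5 with the combination at 8 h (3) and 5 for the combination against enzalutamide at 24 h (3). Leaving out each library in turn gave 1 to 2 with enzalutamide at 8 h, 1 to 2 with olaparib at 24 h, 1 to 3 with the combination at 8 h, 1 to 5 for the departure at 72 h, 1 to 2 for enzalutamide against olaparib at 8 h, 1 to 7 for DMSO at 72 h against 8 h and 4 to 8 for the change of the olaparib effect. Over all genes, fitting only the libraries compared gave 607 calls with olaparib at 72 h (2819 in the fit of all groups), 1943 with enzalutamide at 72 h (4287), 4275 with the combination at 72 h (6699), 82 with olaparib at 8 h (208), 669 for the combination against enzalutamide at 24 h (303), 57 for the departure at 72 h (356), 3 for DMSO at 72 h against 8 h (442), and 666, 406 and 2012 for the changes of the enzalutamide, olaparib and combination effects (1608, 1528 and 3604). With no filter there were 428 with olaparib at 8 h, 174 for the combination against enzalutamide at 8 h (103), 20 and 31 for the departure at 8 h and 24 h (0 and 0), and 874 for DMSO at 72 h against 8 h. The lowest count behind a member in any library was 30, for CYP51A1, then 49 for STARD4 and 56 for INSIG2, so counting error weighs most on these.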
